A study of Mus musculus with 6 samples.

Results

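Mitochondrial complex I genes were examined in Lineage- c-Kit+ Sca1+ (LSK) cells, the bone marrow fraction enriched for blood stem cells and early progenitors. Members were the genes whose symbol begins with Nduf, 1 gene per probe set in the platform annotation, with pseudogenes left out. Symbols were first updated by Entrez ID, and Ndufaf8 and Ndufb4c are members only through that update, since the annotation lists them under other symbols. There were 45 such genes of 30142 genes named on the arrays, namely 35 subunits, 8 assembly factors (Ndufaf) and 2 genes, Ndufa4 and Ndufa4l2, that carry an Nduf name but belong to complex IV. The knockout group was 3 samples from miR-21flox/flox:Mx1-Cre+ mice and the control group was 3 samples from littermates that were miR-21flox/flox:Mx1-Cre-, with 1 array for each sample. Both groups carried the floxed alleles and received pIpC, a double-stranded RNA analogue that drives Cre from the interferon-responsive Mx1 promoter, at 250 µg for each of 7 injections, beginning at 4 to 6 weeks of age. Cells were collected 4 weeks after treatment. Only the knockout mice carried Cre, so effects of Cre and of the deletion cannot be told apart, and the Mx1 promoter also acts outside blood cells. The labels call the samples biological replicates without saying how many mice each one pooled, and p-values therefore cover only the spread among these arrays.

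Complex I takes electrons from NADH, passes them along a chain of iron-sulfur clusters to ubiquinone, and pumps protons across the inner mitochondrial membrane. Its matrix arm holds the NADH-binding N module and the quinone-reducing Q module, and its membrane arm holds the proton pumps. Core subunits carry out the catalysis and are encoded partly in the nucleus and partly in mitochondrial DNA, accessory subunits surround and stabilise them, and assembly factors help to build the enzyme without staying in it. Blood stem cells are known for a metabolism that leans on glycolysis, with respiration rising as they enter differentiation. The molecule targeted for deletion in the knockout mice, miR-21, is a microRNA that represses transcripts through its seed. The mature sequence that defines the groups (RefSeq, GRCm38.p6, chr11:86584120-86584141, minus strand) has the seed, bases 2 to 8, in capitals.
mmu-miR-21a-5p: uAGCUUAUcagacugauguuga

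The probe set over the targeted locus is annotated to both miR-21 and its host gene Vmp1, and had values of 5.65, 5.64 and 5.76 in knockout, against 5.65, 5.60 and 5.63 in control (limma adjusted p = 0.592). Because it cannot separate the short microRNA from the host transcript, it does not check the labels. Array levels were alike, with medians of 1.90 to 1.95 on the log2 scale, and correlations across probe sets were 0.995 to 0.997 within groups and 0.987 to 0.991 between groups. All 7 LSK markers with a probe set of their own, including Kit, Cd34 and Flt3, were above the dim level of 1.92, the median of all values, under which genes were not tested. Ly6a, the Sca-1 gene, was not named by a single-gene probe set. Under the dim level were 1 of 2 B cell markers (Ms4a1) and 1 of 3 T cell markers (Cd3g). Cd79a, at means of 3.73 in knockout and 3.70 in control, was above it, as were Cd3e, at 2.28 in knockout and 2.19 in control, and Cd8a by its mean over the 6 arrays, at 2.0 in knockout and 1.88 in control.

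Many complex I genes were higher in knockout LSK cells, and none passed the test as lower. Of 44 tested members, 27 rose, 0 fell and 17 did not pass (limma, Benjamini-Hochberg adjusted p under 0.05), and since every one of the 44 changes was above 0, none was lower at an unadjusted p under 0.05 either. Of all genes tested, 65.1% were above 0. Over all 18747 genes tested, 19.4% rose and 12.2% fell, 31.5% passing in all. With the replicate number as a block (paired arrays), 37 of the 44 rose, where 24.3% of all genes did, and the evidence for that pairing lay close to its limit. The changes were small: the median over the 44 genes was 0.28 on the log2 scale, with a range of 0.06 to 0.56, against a median of 0.07 over all genes tested. Each change is the mean log2 value in knockout minus that in control, and its error is the standard error from limma. Every knockout array lay above every control array for 30 of the 44 genes and below for 0, where the shares over all genes tested were 31% (above) and 17.2% (below). These are RNA levels in a mixed cell fraction, in which fewer cells of a type and less RNA per cell cannot be told apart.

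**Figure D1:**
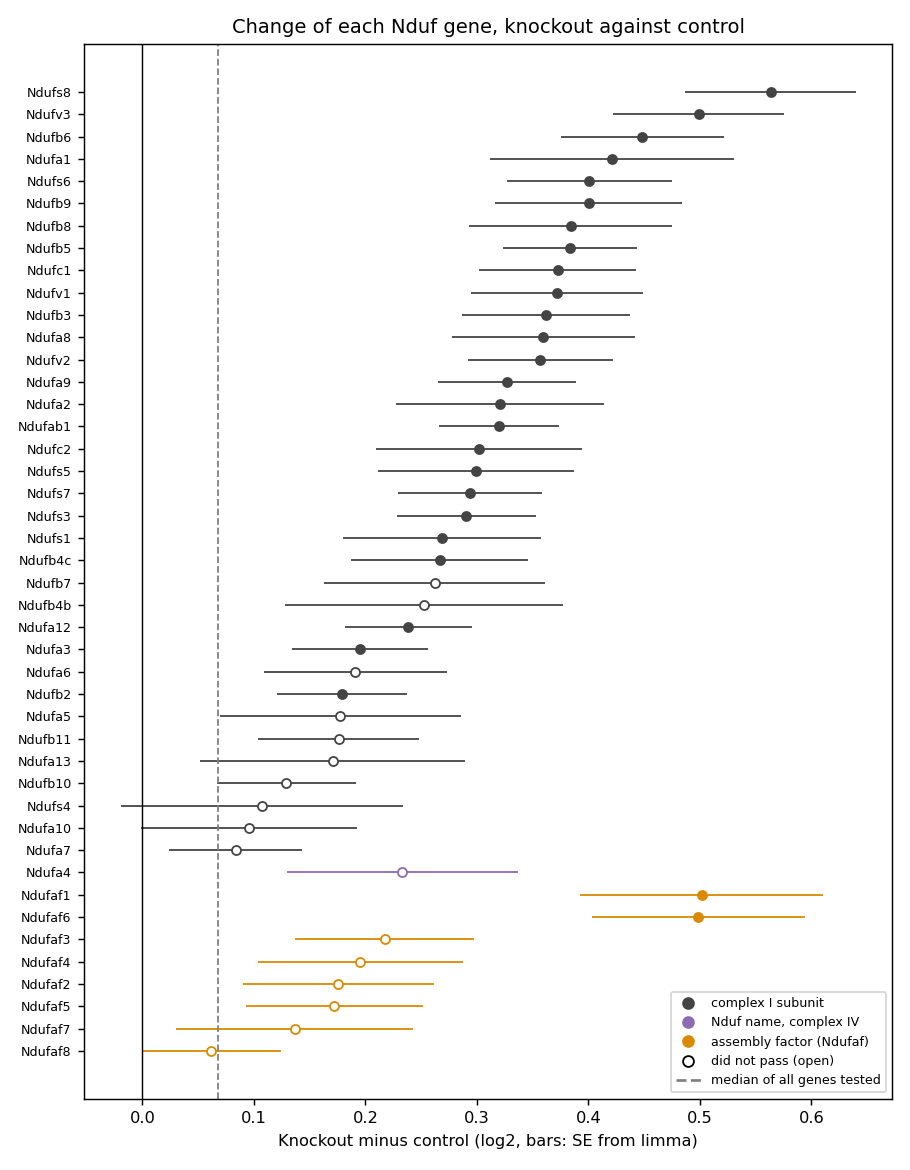
Change of each of the 44 tested Nduf genes (x axis, knockout minus control, log2, bars show the SE from limma), grouped down the page into subunits, the complex IV gene Ndufa4 and assembly factors, with filled points passing the test and open points not passing. Every point lies above 0, from 0.06 for Ndufaf8 to 0.56 for Ndufs8, and the dashed line marks the median of all genes tested at 0.07.

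Among the 35 subunits 25 rose, 0 fell and 10 missed the threshold. Their median change was 0.30, with quartiles of 0.19 and 0.37. Among the 8 Ndufaf assembly factors 2 rose, 0 fell and 6 missed it, and their median change was 0.19, with quartiles of 0.16 and 0.29. The share that rose was 71.4% for subunits and 25% for assembly factors, against 19.4% of all genes tested, although all 8 assembly factors were above 0. These shares are not matched for signal level or precision. A mean of at least 6 was reached by 20 of 35 subunits and 1 of 8 assembly factors, and 33% of all genes that bright rose. The median SE was 0.077 for subunits and 0.089 for assembly factors. The quartiles over all genes tested were -0.07 and 0.18. The difference between subunits and assembly factors was not tested. Without knockout replicate 3, 16 subunits rose, where 12.5% of all genes did. With the replicate number as a block, 31 of 35 subunits and 5 of 8 assembly factors rose, against 24.3% of all genes. That fit added Ndufaf2, Ndufaf3 and Ndufaf4 to the assembly factors that rose. With array weights 28 subunits and 4 assembly factors rose, against 21.3% of all genes. Without control replicate 2 the median of the assembly factors was 0.12.

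Core subunits encoded in the nucleus and analysed here numbered 6, and all 6 rose. Ndufs8, which carries iron-sulfur clusters in the Q module, had log2 values of 7.34, 7.35 and 7.49 in knockout, against 6.95, 6.72 and 6.82 in control. Its change of 0.56 ± 0.08 (SE, 1.48-fold, limma adjusted p = 8.10e-04) was the largest among the members. The groups did not overlap, and the lowest knockout array lay well above the highest control array.

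Ndufv1, which binds NADH and the flavin that takes its electrons, had values of 7.38, 7.21 and 7.34 in knockout, against 7.04, 6.81 and 6.97 in control (change 0.37 ± 0.08, adjusted p = 0.00674). Its partner in the N module, the iron-sulfur protein Ndufv2, had values of 5.68, 5.61 and 5.76 in knockout, against 5.35, 5.26 and 5.38 in control (change 0.36 ± 0.06, adjusted p = 0.00360). For both genes the groups were separate, and replicate 2 was the lowest array on each side.

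Ndufs1, the large iron-sulfur subunit of the N module, had values of 4.83, 4.63 and 4.76 in knockout, against 4.54, 4.29 and 4.59 in control. The change was 0.27 ± 0.09 with an adjusted p of 0.0456, and knockout replicate 2 stood just above control replicate 3. Leaving out knockout replicate 1, knockout replicate 3, control replicate 1 or control replicate 2 ended this call, and the change ran from 0.18 to 0.33 over the 6 fits that each leave out 1 array.

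The Q module subunit Ndufs3 had values of 6.01, 5.97 and 6.09 in knockout, against 5.78, 5.67 and 5.75 in control (change 0.29 ± 0.06, adjusted p = 0.00785). Ndufs7, which holds the last iron-sulfur cluster before the quinone, had values of 6.11, 6.16 and 6.12 in knockout, against 5.94, 5.80 and 5.76 in control (change 0.29 ± 0.06, adjusted p = 0.00856). Both were separate between groups, and both passed in all 6 fits that leave out 1 array, as did Ndufs8, Ndufv1 and Ndufv2. The 7 subunits encoded by mitochondrial DNA were not analysed here.

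**Figure D2:**
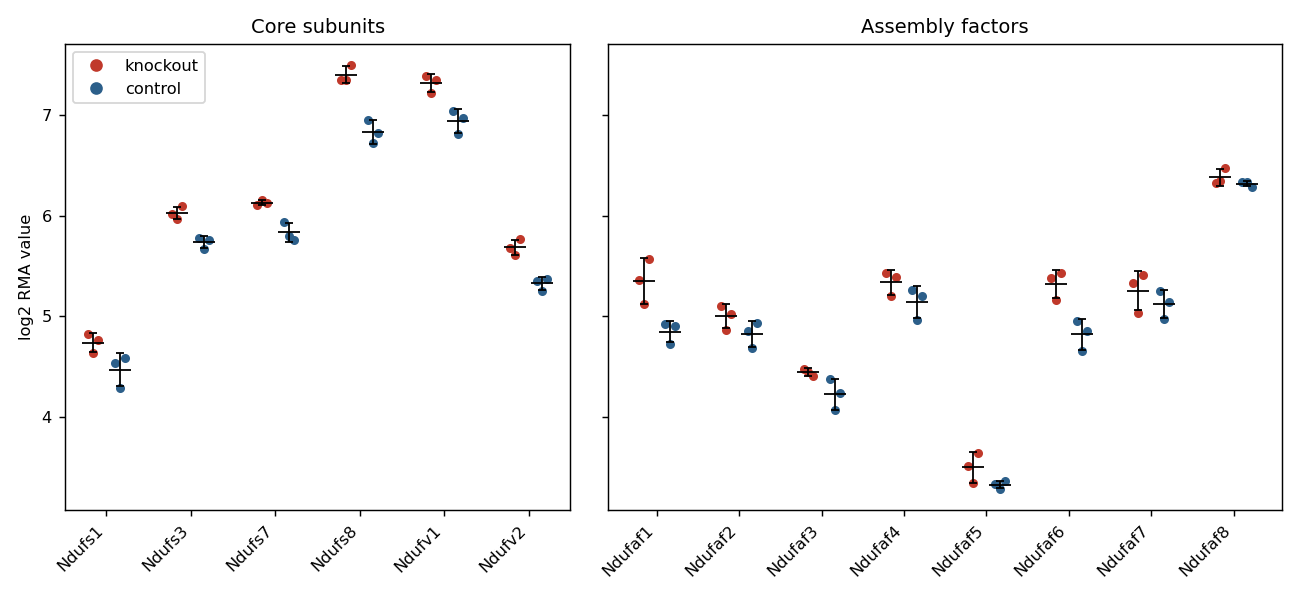
Log2 RMA value on each array for the 6 core subunits (left) and the 8 assembly factors (right), knockout in red left of control in blue, with the mean and SD of 3 arrays in black. Knockout and control points are separate for all 6 core subunits and overlap for 5 of the 8 assembly factors.

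The accessory subunits, which are not part of the catalytic core, numbered 29, and 19 of them rose. The highest changes were those of Ndufv3, Ndufb6, Ndufa1, Ndufs6 and Ndufb9. Ndufv3, which sits beside the NADH-binding subunits, had values of 6.93, 6.74 and 6.83 in knockout, against 6.34, 6.23 and 6.45 in control (change 0.50 ± 0.08, 1.41-fold, adjusted p = 0.00154). The membrane-arm subunit Ndufb6 had values of 7.96, 7.88 and 8.0 in knockout, against 7.57, 7.36 and 7.56 in control (change 0.45 ± 0.07, adjusted p = 0.00211). In both genes all knockout arrays were above all control arrays.

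Ndufa1, a small X-linked membrane subunit, had values of 8.44, 8.18 and 8.48 in knockout, against 8.10, 7.73 and 8.0 in control (change 0.42 ± 0.11, adjusted p = 0.0176). Its call was lost without knockout replicate 1 or 3. Ndufs6, a zinc-binding subunit of the N module, had values of 7.44, 7.35 and 7.53 in knockout, against 7.14, 6.93 and 7.05 in control (change 0.40 ± 0.07, adjusted p = 0.00389). The annotation also gives its probe set the Entrez ID of the pseudogene Ndufs6b, so its signal can include that copy. Ndufb9, of the membrane arm, had values of 7.20, 7.07 and 7.26 in knockout, against 6.89, 6.62 and 6.83 in control (change 0.40 ± 0.08, adjusted p = 0.00700).

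The other accessory subunits that rose had changes of 0.18 for Ndufb2 to 0.38 for Ndufb8, which came just after Ndufb9. They included Ndufab1, the mitochondrial acyl carrier protein that also serves fatty acid synthesis, at 0.32 ± 0.05 (adjusted p = 0.00242), Ndufb5 at 0.38, both members of the Ndufc pair (Ndufc1 at 0.37 and Ndufc2 at 0.30), and Ndufa9, at the junction of the arms, at 0.33. Ndufb4c, at 0.27, and Ndufb4b, at 0.25 with an adjusted p of 0.151, are near-identical copies of Ndufb4, so signal from shared probes cannot be assigned between them.

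The 5 lowest changes among the accessory subunits did not pass. Ndufa7 had values of 5.21, 5.26 and 5.29 in knockout, against 5.24, 5.13 and 5.14 in control (change 0.08 ± 0.06, adjusted p = 0.308). Ndufa10, a membrane-arm protein related to nucleoside kinases, had values of 7.10, 6.86 and 7.15 in knockout, against 7.09, 6.82 and 6.91 in control (change 0.10 ± 0.10, adjusted p = 0.471). Ndufs4, which helps to hold the N module in place and whose loss in humans causes Leigh syndrome, had values of 7.00, 6.66 and 7.08 in knockout, against 6.95, 6.57 and 6.89 in control (change 0.11 ± 0.13, adjusted p = 0.539). The groups overlapped for all of these genes, and for Ndufs4 the spread within groups was wider than the change, which turned to -0.01 without control replicate 2.

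Ndufb10, of the membrane arm, had values of 5.83, 5.76 and 5.80 in knockout, against 5.76, 5.61 and 5.63 in control (change 0.13 ± 0.06, adjusted p = 0.145), with knockout replicate 2 and control replicate 1 nearly level. Ndufa13, also known as GRIM-19 for its link to cell death, had values of 7.73, 7.43 and 7.68 in knockout, against 7.61, 7.18 and 7.53 in control (change 0.17 ± 0.12, adjusted p = 0.298). Knockout replicate 2 of Ndufa13 was below control replicates 1 and 3, and without control replicate 2 the change was 0.04. With replicate number as a block (pairs of same-numbered arrays), Ndufa13 passed with an adjusted p of 0.0484, and so did Ndufa5 (0.0486), Ndufa6 (0.0376), Ndufb11 (0.0366), Ndufb4b (0.0210) and Ndufb7 (0.0183). Of these, Ndufa13 (0.0502) and Ndufa5 (0.0506) missed the threshold in the blocked fit when probe sets were named by a looser rule, under which the numbers also did not meet the limit used for pairing.

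By place in the enzyme, 7 of the 10 N module genes rose (median change 0.29), as did 3 of 4 measured in the Q module (0.29) and 13 of 18 of the membrane-arm accessory genes (0.31). By symbol, the counts were 7 of 12 for Ndufa, 7 of 11 for Ndufb, 2 of 2 for Ndufc, 6 of 7 for Ndufs and 3 of 3 for Ndufv. The medians of these symbol classes ran from 0.22 for Ndufa to 0.37 for Ndufv, and differences among modules and classes were not tested.

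Among the assembly factors, Ndufaf1 and Ndufaf6 rose. Ndufaf1, a member of the complex that assembles part of the membrane arm, had values of 5.36, 5.12 and 5.57 in knockout, against 4.92, 4.73 and 4.90 in control (change 0.50 ± 0.11, 1.42-fold, limma adjusted p = 0.00825). Ndufaf6, which acts early in assembly, had values of 5.38, 5.16 and 5.43 in knockout, against 4.96, 4.66 and 4.86 in control (change 0.50 ± 0.10, adjusted p = 0.00453). Both were separate between groups and passed in all 6 fits that leave out 1 array, and of the subunits Ndufs8 alone had a higher change than Ndufaf1.

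The other 6 assembly factors did not pass. Ndufaf3, which works with Ndufaf4 on the Q module, had values of 4.48, 4.45 and 4.41 in knockout, against 4.38, 4.07 and 4.24 in control (change 0.22 ± 0.08, adjusted p = 0.0679). Its groups were separate by a small margin, and with the replicate block its adjusted p was 0.0382. Ndufaf4 had values of 5.43, 5.20 and 5.39 in knockout, against 5.26, 4.97 and 5.20 in control (change 0.20 ± 0.09, adjusted p = 0.135, or 0.0244 with the block).

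Ndufaf2, a relative of the subunit Ndufa12 that guides late assembly of the N module, had values of 5.11, 4.87 and 5.03 in knockout, against 4.86, 4.68 and 4.94 in control (change 0.18 ± 0.09, adjusted p = 0.146, or 0.0465 with the block). Ndufaf5, an enzyme that hydroxylates Ndufs7, had values of 3.51, 3.35 and 3.65 in knockout, against 3.34, 3.29 and 3.37 in control (change 0.17 ± 0.08, adjusted p = 0.129). In both genes knockout replicate 2 lay within the range of the control arrays.

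Ndufaf7, a methyltransferase that acts in assembly of the matrix arm, had values of 5.33, 5.03 and 5.41 in knockout, against 5.25, 4.97 and 5.14 in control (change 0.14 ± 0.11, adjusted p = 0.348). Ndufaf8, a partner of Ndufaf5, had values of 6.33, 6.34 and 6.47 in knockout, against 6.33, 6.33 and 6.29 in control (change 0.06 ± 0.06, adjusted p = 0.472), the smallest change among the members tested. The groups overlapped in both, and for Ndufaf8 only knockout replicate 3 stood apart from the rest. Of the complex IV genes with an Nduf name, Ndufa4 was at 0.23 (adjusted p = 0.116, or 0.0304 with the block), and Ndufa4l2, a gene known to be induced by hypoxia, was under the dim level, at 1.66, 1.81 and 1.74 in knockout, against 1.59, 1.54 and 1.60 in control.

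The members shared a pattern among arrays of the same group. In knockout replicate 2, 29 of 35 subunits were below the mean of their own group, with a median deviation of -0.09, and in control replicate 2 it was 33 of 35, with a median of -0.12. In control replicate 1 all 35 subunits were above their group mean (median 0.09). Over all genes tested the median deviation of each array from its group lay between -0.01 and 0.01. The low replicate 2 was not particular to complex I. By median level it was also the lowest array of both groups for mitochondrial content genes (6.48 in knockout, 6.26 in control). The same held for LSK, myeloid progenitor and neutrophil markers and, by a small margin, for all genes tested (4.27 in knockout, 4.24 in control), but not for cycling genes. Over the 44 members together the median level did not show it. Knockout replicate 2 was at 6.17, against 6.13 and 6.12, and control replicate 3 was the lowest control array at 5.82. By mean level over the 44, replicate 2 was the lowest array of both groups (6.19 in knockout, 5.88 in control). What these arrays share was not tested. Within same-numbered pairs the median difference over subunits, knockout minus control, was 0.22 in pair 1, 0.36 in pair 2 and 0.34 in pair 3, and over assembly factors it was 0.17, 0.21 and 0.23. Of the 44 members, 42 were higher in knockout in all 3 pairs, against 43% of all genes tested.

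**Figure D3:**
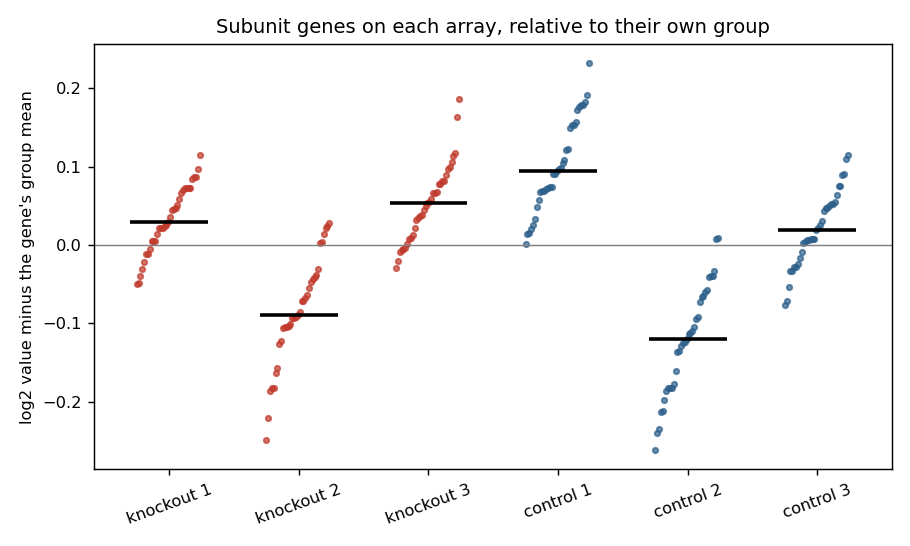
Log2 value of each of the 35 subunits on each array minus the mean of that gene in its own group (y axis), with knockout arrays left of control arrays and a bar at the median. Replicate 2 is low in both groups, with medians of -0.09 in knockout and -0.12 in control, and control replicate 1 is the highest of the arrays.

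Other genes of the pathway were taken from lists of genes outside the Nduf family. Their counts stand against 19.4% higher and 12.2% lower over all genes tested, with a median change of 0.07. Of 8 assembly factors without an Nduf name, 3 rose and 0 fell (median 0.09), namely Ecsit (0.28 ± 0.06, adjusted p = 0.0102) and Tmem126b (0.38, adjusted p = 0.0223), both partners of Ndufaf1, and Dmac2 (0.25, adjusted p = 0.0400). Acad9, of the same assembly complex, was at 0.08 (adjusted p = 0.369). Of 8 enzymes and carriers linked to the quinone pool or to cytochrome c, 4 rose and 1 fell (median 0.22). Dhodh, of pyrimidine synthesis, rose by 0.30 (adjusted p = 0.00354), Sqor by 0.37 and cytochrome c (Cycs) by 0.50, along with the ubiquinone synthesis gene Coq9 at 0.29, while glycerol-3-phosphate dehydrogenase Gpd2 fell by 0.42 (adjusted p = 0.00243).

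Regulators of mitochondrial biogenesis went both ways, 4 of 11 higher and 2 lower (median -0.01), against 19.4% higher and 12.2% lower over all genes tested. Myc rose by 0.81 (adjusted p = 3.44e-05), Tfam, which packages mitochondrial DNA, by 0.26, Tfb1m by 0.21 and the coactivator Pprc1 by 0.24. Tfb2m was at -0.08 (adjusted p = 0.280). Ppargc1a, which encodes PGC-1alpha, fell by 0.49 (adjusted p = 4.61e-04), with a knockout mean of 2.07 near the dim level against 2.56 in control, and Gabpb1 fell by 0.35. Nrf1 was at 0.03 (adjusted p = 0.794) and Yy1 at -0.01 (adjusted p = 0.944). Of 12 genes used as measures of mitochondrial content, 5 rose and 0 fell (median 0.14), among them the import channel Tomm40 at 0.53, the inner membrane scaffold Phb2 at 0.28 and citrate synthase (Cs) at 0.29, while Tomm20 was at -0.02 (adjusted p = 0.894) and Vdac1 at 0.06 (adjusted p = 0.455).

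**Figure D4:**
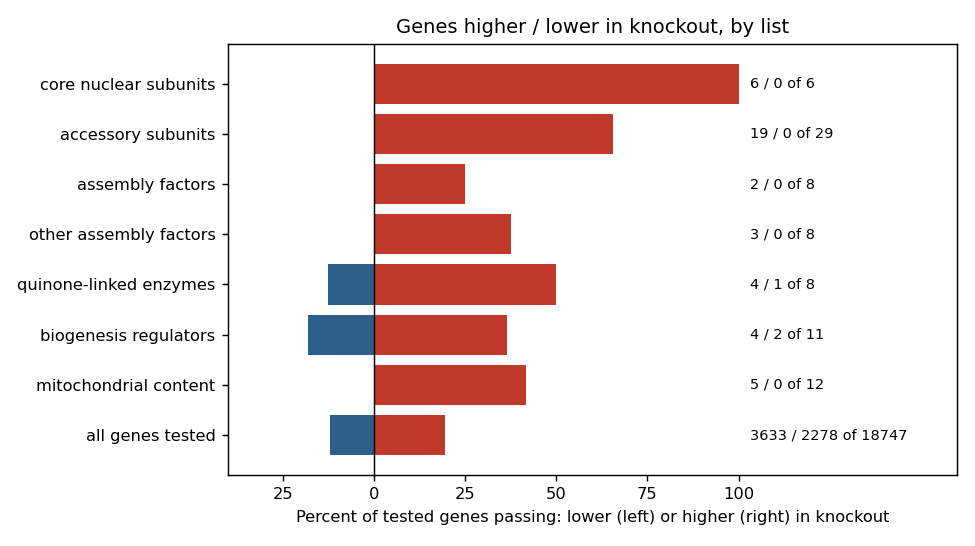
Percent of tested genes that were higher (right, red) or lower (left, blue) in knockout for each list, with the counts higher and lower of those tested beside the bars. Core subunits were higher in 6 of 6, accessory subunits in 19 of 29 and assembly factors in 2 of 8, and all genes tested stand at 19.4% higher and 12.2% lower.

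Promoters of the members were searched for short motifs of factors known to control respiratory genes, since the members moved together. RefSeq windows (GRCm38.p6) from 250 bases before to 50 after the start were found for 39 of the 44 tested members. The YY1 letters AAGATGGC, on either strand, were in 8 of 39 members (20.5%), against 3.19% of 27025 genes with a window and 4.54% of the 11756 tested genes with one. All 8 matches lay after the start, on the strand of the gene, with their first base 11 to 39 bases in. The letters include ATG, so such a match can overlap a start codon, which was not tested. The sites are shown to compare their surroundings, in 30 bases each with the match in capitals.
Ndufa3 (chr7:3617384-3617413, plus strand): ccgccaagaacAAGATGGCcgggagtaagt
Ndufa9 (chr6:126849097-126849126, minus strand): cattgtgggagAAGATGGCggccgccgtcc
Ndufaf8 (chr11:120098933-120098962, plus strand): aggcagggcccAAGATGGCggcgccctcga
Ndufb8 (chr19:44555393-44555422, minus strand): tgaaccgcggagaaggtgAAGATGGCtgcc
Ndufc1 (chr3:51408915-51408944, minus strand): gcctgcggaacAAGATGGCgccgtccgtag
Ndufs4 (chr13:114388045-114388074, minus strand): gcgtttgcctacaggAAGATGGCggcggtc
Ndufs6 (chr13:73328433-73328462, minus strand): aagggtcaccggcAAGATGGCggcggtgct
Ndufs7 (chr10:80249462-80249491, plus strand): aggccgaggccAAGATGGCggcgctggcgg

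Of these 8 genes, 6 rose, and Ndufs4 and Ndufaf8 did not pass. Among all 39 members with a window 22 rose, and a link between the letters and the call was not tested. Their changes ran from 0.06 for Ndufaf8 to 0.40 for Ndufs6, and the letters were not in the windows of Ndufs8, Ndufaf1, Ndufv3, Ndufb6 and Ndufa1, whose changes were higher. The NRF1 letters GCATGCGC were in 4 of 39 members (10.3%), Ndufa6, Ndufa8, Ndufaf4 and Ndufaf5, against 5.02% of tested genes, and 1 of the 4, Ndufa8, rose. The Sp1 letters GGGGCGGG were in 10 of 39 (25.6%, against 31.6% of tested genes) and the CREB letters TGACGTCA in 2 (5.13%, against 3.19%). The ETS letters CCGGAAGT were in 1 (2.56%, against 7.66%) and the ERRA letters TCAAGGTCA in 0, against 0.357%. A match is a description of the sequence, and its absence says nothing about the factor.

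Markers of cell makeup and of cell division moved with the groups. Of the 7 LSK markers 6 fell and 1 rose, the summed level (log2 of the summed linear values) being 10.08 to 10.11 in knockout and 10.41 to 10.42 in control. All 6 myeloid progenitor markers rose, with a summed level of 11.38 to 11.41 in knockout and 9.96 to 10.07 in control, and all 6 neutrophil markers rose, at 8.69 to 8.89 in knockout and 7.27 to 7.54 in control. Cycling genes rose, 5 of 5, at 10.01 to 10.08 in knockout and 9.50 to 9.60 in control, and so did 3 of 3 erythroid markers. The B cell sums, at 3.84 to 3.99 in knockout and 3.84 to 3.98 in control, overlapped, as did the T cell sums, at 3.48 to 3.58 in knockout and 3.38 to 3.50 in control. The part of these shifts in the complex I result was not tested.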

How the data were processed

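Gene expression was measured on Affymetrix arrays from 250 ng of total RNA in 3 knockout and 3 control LSK samples, grouped by their titles. The authors deposited values per probe set on a log scale, taken here as log2 since the base is not stated, and RMA is named in the submitters' processing notes. RMA corrects background and equalises intensity distributions over all probe sets of an array, which can reduce a shift shared by most genes. Of 65956 probe sets, 30604 had 1 gene symbol, 2146 several and 33206 none. Symbols were updated by Entrez ID through a RefSeq table of GRCm38.p6 for 827, and the brightest probe set was used for a gene with several. Genes with a mean under 1.92 were not tested, which left 18747. The comparison used lmFit and eBayes of limma 3.58.1 under R 4.3.3 (two-sided, Benjamini-Hochberg over all genes tested, threshold 0.05), and the fit was tested on simulated data with known changes. For arrays, their number, 3 per group, limits the precision.

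Replicate numbers in the titles were tested as pairs. Deviations from group means correlated at 0.218, 0.334 and 0.104 for numbers 1, 2 and 3, where every value had to exceed 0.1. A looser naming rule was also run, in which a probe set with several symbols but 1 Entrez gene is named too (31388 probe sets, 19151 genes tested). It gave 0.219, 0.334 and 0.0991, so the numbers passed the limit under 1 rule and missed it under the other. The rule of 1 symbol per probe set was kept because the members are defined by it, but both results had been seen by then. Whether the numbers pair the samples is therefore unsettled, the labels do not say what a number shares, and the blocked values beside the results should be read with this.

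Members, gene lists and motifs were chosen with earlier results of these data known. Values on every array are given for the core subunits, the 5 highest and 5 lowest changes among other subunits tested, and every Ndufaf gene. Pathway genes outside the family are named by lowest p, up to 3 per list, and others after their values were seen. Promoter windows and the miRNA came from RefSeq tables. Alternatives tried were the filter on dim genes, the mean of probe sets, centring, a second quantile normalization, array weights, an intensity trend with and without a robust prior, the replicate block and leaving out each array, with 3 added after seeing the data: bright genes only, the looser naming, and leaving out near-identical copies.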

Additional observations from a re-analysis of the deposited data

Results flagged for a closer look

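The comparison left out 3 probe sets with an Nduf name, held in the annotation or, for Gm4943, as its current symbol. In a separate fit over 33010 probe sets 2 of the 3 passed as higher. The share of all probe sets passing in that fit is not given here, so the count has no background beside it. The other, annotated to Ndufb4 and to Gm3244, the older symbol of the member Ndufb4c, was at 0.24 (limma adjusted p = 0.0958) and did not pass. The probe set annotated to both Ndufa11 and the pseudogene Ndufa11b had values of 5.47, 5.60 and 5.56 in knockout, against 5.32, 5.0 and 5.23 in control, a change of 0.36 (limma over 33010 probe sets, adjusted p = 0.0255). The probe set of the pseudogene Gm4943, now Ndufa11b, had values of 4.30, 4.52 and 4.23 in knockout, against 4.11, 3.69 and 3.82 in control, a change of 0.48 (adjusted p = 0.0255). In both, all knockout arrays were above all control arrays. These copies can share probes, and no explanation was tested. With 3 arrays a group, no single array could be tested for standing apart.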

How the results depend on the processing

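No complex I gene was lower under any alternative, and every alternative kept each tested member's change above 0 except Ndufs4 without control replicate 2. The number of members that rose, 27, ran from 18 to 27 over the fits that leave out 1 array, and that of subunits, 25, from 16 (without knockout replicate 3) to 24. Leaving out knockout replicate 1, 2 or 3 left 19, 27 or 18 members, and leaving out control replicate 1, 2 or 3 left 27, 20 or 21. The share of all genes that rose in those fits also moved, from 12.5% to 16.6%. Of the 27, 18 passed in all 6 of those fits. The other 9 were Ndufb2, Ndufa3, Ndufb4c, Ndufs1, Ndufs5, Ndufc2, Ndufa2, Ndufa12 and Ndufa1, whose changes in those fits ran from 0.15 (Ndufb2) to 0.51 (Ndufa1). With the replicate block 37 members rose, 31 of them subunits and 5 assembly factors, and no call was lost, while the share of all genes that rose was 24.3%, against 19.4% without it. With the looser naming of probe sets (run earlier, then set aside, with its results seen), 27 members rose without the block, and with it 35, of them 29 subunits and 5 assembly factors. The third pair correlated at 0.0991 under that naming and at 0.104 under the one used, either side of the limit of 0.1 for pairing. Array weights gave 4 assembly factors. Centring each array on its median gave 22 members, and no filter on dim genes 24. In a fit of bright genes only (a mean of at least 6, chosen after seeing the data), 22 members remained to be tested, of which 14 rose, all subunits, and 0 of the assembly factors, where 1 was left. In that fit 33% of all genes rose. The median change of subunits ran from 0.23 to 0.37 over all alternatives, and that of assembly factors from 0.12 to 0.25 over the alternatives that tested all 8. The other alternatives kept each count within 1.5 times. Members that did not pass are not shown to be unchanged.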
